A study of Mus musculus with 10 samples.

Results

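The comparison described here is that of mouse Sertoli cells of 6 days post partum (dpp) given 5 ng activin with cells of the same age given 0 ng activin. It covers 4 of the 10 arrays of the series, chosen by their labels: 2 arrays of the 5 ng group and 2 of the 0 ng group, and n = 2 for each group. The remaining 6 arrays hold cells of 6 dpp given 50 ng (2 arrays) and cells of 15 dpp given 0 ng or 5 ng (2 arrays each). They serve to show where the 5 ng response at 6 dpp differs. They also enter the normalisation, the filter, the choice of probe set and the spread behind each standard error and p-value. RNA was hybridised to 3' expression arrays with biotin label. The labels give the dose as a mass of activin without a volume, and name neither the mouse strain, the length of the treatment nor how the Sertoli cells were purified. The labels number the arrays of each group 1 and 2 without saying whether these came from separate animals or cultures. The p-values here thus reflect only how far arrays differ within a group, and that spread may be technical. It was pooled over all 5 groups and moderated across genes, so it is not that of the 4 compared arrays alone.

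Activin is a ligand of the TGF-beta family made of inhibin beta subunits. It binds a type II receptor (ACVR2A or ACVR2B), which recruits and activates the type I receptor ACVR1B, and this phosphorylates SMAD2 and SMAD3, which join SMAD4 and act on transcription in the nucleus. Follistatin and the related FSTL3 bind activin and block it, the inhibin alpha subunit pairs with the same beta subunits to form the antagonist inhibin, and SMAD7 inhibits the activated receptor. Sertoli cells are the somatic supporting cells of the seminiferous tubule. They divide around the time of birth and stop dividing as they mature, when they form the blood-testis barrier, and activin is known as a regulator of this period. The description of the study concerns the use of SMAD2 and SMAD3 at different ages.

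Median deposited signals of the 10 arrays lay between 29.7 and 35.3, and among the 4 arrays compared here the correlation of log2 levels across genes lay between 0.985 and 0.990, within and between the groups alike. Of 24 Sertoli cell markers 20 were measured. Sox9 had signals of 683 and 536 at 0 ng and 629.8 and 561 at 5 ng, and the sum over the 20 markers was 35460 and 34520 at 0 ng and 33550 and 33930 at 5 ng. Markers of other testicular cells were measured as well, and their summed signals are given for array 1 and array 2 of each group. The 16 fibroblast markers summed to 18690 and 19900 at 0 ng and 19420 and 19810 at 5 ng, with Col1a2 at 3297 and 3711 at 0 ng. The 14 measured markers of peritubular myoid cells and smooth muscle summed to 18720 and 16470 against 18430 and 17270, with Acta2 at 3856 and 3456 at 0 ng. The 10 measured Leydig cell markers summed to 7254 and 7695 against 7377 and 7832, while Lhcgr and Insl3 were not measured. The 20 germ cell markers summed to 4332 and 4630 against 4236 and 4172, with Nanog, Tnp1 and Prm1 under the filter on low values and Nanos2 and Nanos3 not measured. The 10 leukocyte markers summed to 214.5 and 284 against 266.5 and 257, with Ptprc, Aif1 and Cx3cr1 among those under the filter, and the 9 endothelial markers to 864 and 950.2 against 888.5 and 914.5. In arrays of a cell population, fewer cells of a type and less RNA per cell cannot be told apart.

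At 5 ng, a single gene of 12405 passed the test across all genes (0.00806%; limma, Benjamini-Hochberg adjusted p under 0.05): E2f5, which encodes a transcription factor of the E2F family, rose. All changes below are differences of mean log2(signal + 16) between the 5 ng and 0 ng arrays, given with their standard error (SE) from the fit, and levels are the deposited signals of array 1 and array 2 of a group. At an unadjusted p under 0.05 there were 1198 genes (9.66%), 572 higher (4.61%) and 626 lower (5.05%) at 5 ng. Quantile normalised log2(signal + 16) levels of the groups did not overlap in 5243 genes (42.3%), 2247 higher (18.1%) and 2996 lower (24.2%). Counts of genes without overlap use these levels, and deposited signals can differ from them in close cases. The median change over all genes was -0.018, and 45.7% of genes had a change above 0. Except for E2f5, no gene named in what follows passed the test at 5 ng in this fit, which has group means only, and adjusted p-values are from limma over all 12405 genes.

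**Figure D1:**
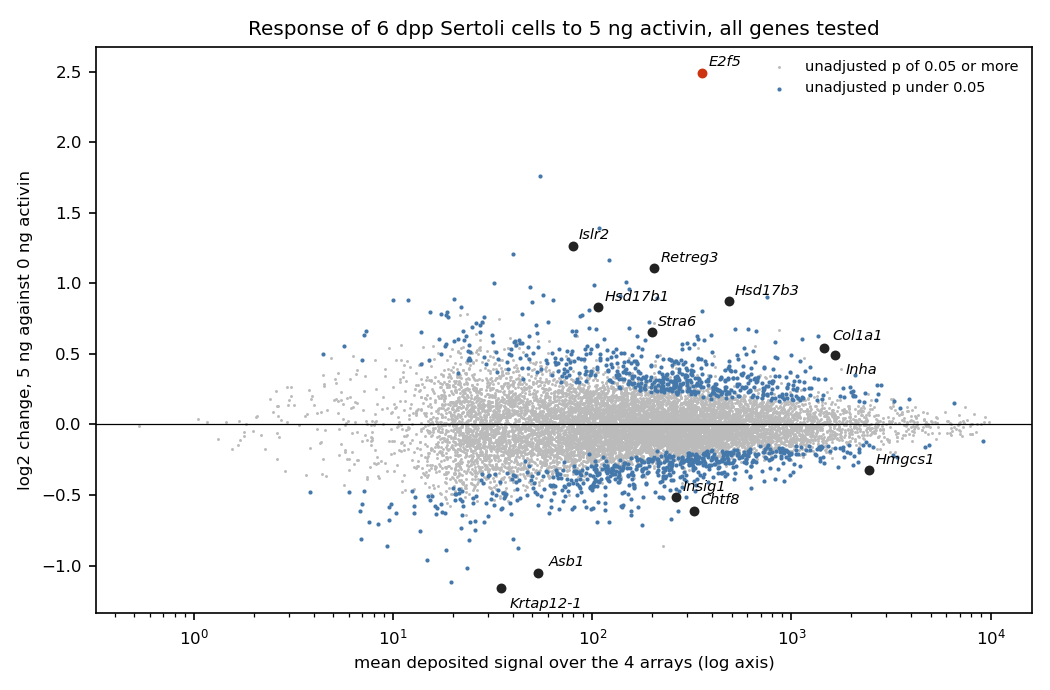
Each point is 1 of the 12405 genes. The horizontal axis is the mean deposited signal over the 4 arrays on a log axis, and the vertical axis is the log2 change from 0 to 5 ng activin at 6 dpp. Blue points have an unadjusted p under 0.05, grey points do not, larger points are genes named in the text, and E2f5 in red, at 2.49, is the gene that passed after adjustment.

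E2f5 belongs to the E2F factors that bind pocket proteins and act at the promoters of cell cycle genes. The probe set that represents it (1447625_at) had signals of 111.0 and 81.4 at 0 ng and 466 and 762 at 5 ng. Both 5 ng arrays lay far above both 0 ng arrays. The change was 2.49 ± 0.28 (adjusted p = 0.0148, limma). At 50 ng the same probe set passed as well against the same 0 ng arrays (change 1.86, adjusted p = 0.00827, limma). There it read 270.4 and 534, above the 0 ng arrays and overlapping the 5 ng arrays. At 15 dpp it read 125 and 115 at 0 ng and 165 and 207 at 5 ng, a change of 0.53. The other probe sets of the gene did not share this pattern. Probe set 1417444_at read 178 and 139.5 at 0 ng and 118.5 and 140.4 at 5 ng (change -0.29), and 1460207_s_at read 152 and 182 against 161 and 172.5 (change -0.02). With the median over the 3 probe sets in place of the brightest, the change of E2f5 was 0.15 (adjusted p = 0.73). The call also ended without array 2 of 0 ng (2.27, adjusted p = 0.125), without array 2 of 5 ng (2.13, adjusted p = 0.283) and without either 0 ng array of 15 dpp (adjusted p = 0.065 and 0.063), and the adjusted p ran up to 0.73 over all alternatives.

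**Figure D2:**
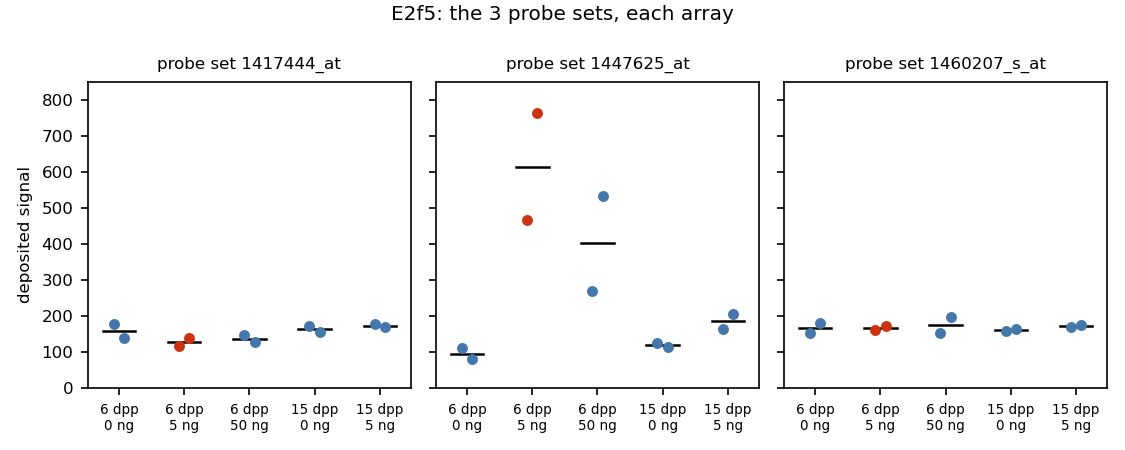
Deposited signal of the 3 probe sets of E2f5 in each of the 10 arrays, by age and dose, with 5 ng at 6 dpp in red and a bar at the mean of each group of 2 arrays. In 1447625_at the 5 ng arrays of 6 dpp, at 466 and 762, stand above all other groups except the 50 ng array at 534, while the other probe sets lie between 118.5 and 198 in every array.

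Of the 8 measured genes of the E2F and DP families, which form the DNA-binding dimers, 6 had a change above 0. The repressor gene E2f6 read 350.5 and 378 at 0 ng and 385 and 478 at 5 ng (0.23 ± 0.11, adjusted p = 0.53; its second probe set -0.11). The activator gene E2f1 read 44.8 and 38.7 against 62.4 and 55.6 (0.30 ± 0.17, adjusted p = 0.61), and E2f4, the family member most like E2f5 in its choice of pocket proteins, 72.8 and 59.9 against 80.2 and 100.5 (0.32 ± 0.17, adjusted p = 0.57). In all 3 genes the arrays of the groups did not overlap. Of the 8 measured, 5 did not overlap with 5 ng higher (18.1% of all genes) and 2 with 5 ng lower (24.2%). The partner genes Tfdp1 (-0.07) and Tfdp2 (-0.22) lay on the other side of 0 and were the 2 lower ones. The 6 measured CDK inhibitor genes, which restrain G1, were all below 0, between -0.16 and -0.02, and none had an unadjusted p under 0.05. The cyclin D2 gene Ccnd2, which drives entry into the cell cycle, read 1546 and 1559 at 0 ng and 2008 and 1987 at 5 ng. The arrays did not overlap and all 7 probe sets had a positive change, but the spread at 15 dpp enters the fit and the change of 0.40 ± 0.35 had an adjusted p of 0.75. Genes of DNA replication and mitosis, which E2F factors are known to control, showed no shift as a list: of 55 measured, 1 was higher (4.61% of all genes) and 1 lower (5.05%) at an unadjusted p under 0.05, 23 had a change above 0 (45.7%) and the median was -0.023. Within it, the DNA ligase gene Lig1 had a change of 0.32 ± 0.11 (adjusted p = 0.39) and Ect2, a regulator of cytokinesis, -0.31 ± 0.12 (adjusted p = 0.45).

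The 4 genes with the smallest p after E2f5 were Adam2, Krtap12-1, Pik3cd and Adgrg1, all with an adjusted p of 0.21. Adam2, a sperm surface gene of the germ line, read 1.32 and 2.52 at 0 ng and 18.3 and 17.7 at 5 ng, so that all 4 arrays lay under the filter's signal of 18.4. The keratin-associated protein gene Krtap12-1 read 50.6 and 56.0 against 11.8 and 20.4 (-1.16 ± 0.20), and its second probe set had a change of 0.07. Pik3cd, the delta catalytic subunit of phosphoinositide 3-kinase, read 127 and 158 against 240.3 and 319 (0.89 ± 0.16), with 3 of 6 probe sets positive. Adgrg1, an adhesion G protein-coupled receptor gene, read 489 and 455 against 659 and 714 (0.54 ± 0.10), and both of its probe sets were positive. Of the 4, it alone had arrays that all lay above the filter and probe sets that all had the same sign.

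Among genes with a mean signal of at least 50, an unadjusted p under 0.05 and arrays that did not overlap, the largest increases after E2f5 were those of the sestrin gene Sesn2 (1.39 ± 0.52), which encodes a stress-inducible regulator of mTORC1, Islr2 (1.27 ± 0.38), the semaphorin gene Sema3f (1.17 ± 0.40) and Retreg3 (1.11 ± 0.23), which encodes a reticulophagy receptor. Sesn2 read 20.1 and 95.8 at 0 ng and 160.4 and 154.5 at 5 ng, so that its 0 ng arrays stood far apart. Retreg3 read 86.9 and 167.5 against 272 and 290.1, and all 3 of its probe sets were positive, whereas 1 of 3 was positive for Sema3f. Islr2 read 41.3 and 34.2 against 88.8 and 154, and 252 and 87.6 at 50 ng. Then came Zdhhc12 (1.01), the neurexophilin gene Nxph3 (0.99), the exoribonuclease gene Xrn1 (0.96), the splicing helicase gene Dhx38 (0.92) and Letmd1 (0.91). Adjusted p-values of these genes lay between 0.21 and 0.47.

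The largest decreases by the same rule were smaller in size. Asb1, a substrate adaptor gene of a ubiquitin ligase, read 78.9 and 75.2 at 0 ng and 31.8 and 27.9 at 5 ng (-1.05 ± 0.21, adjusted p = 0.21), though 2 of its 4 probe sets had a positive change. Chtf8, a subunit gene of a clamp loader of DNA replication, read 411 and 378 against 244 and 264 (-0.61 ± 0.12, adjusted p = 0.21). Tmem255a read 336 and 318 against 212 and 210.1 (-0.61 ± 0.13, adjusted p = 0.21), with all 4 probe sets negative, and 176 and 163 at 50 ng. Lrig1, an inhibitor of ErbB receptors, had a change of -0.64 ± 0.18 with all 3 probe sets negative, and Rabep1, a Rab5 effector, -0.61 ± 0.14 with all 4 negative. Inpp5j (-0.71), Snhg14 (-0.69), the lysophosphatidic acid receptor gene Lpar3 (-0.69), Rpl27a (-0.67) and Rsl1 (-0.62) completed the 10.

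Components of activin, inhibin and TGF-beta signalling were listed by role, and 37 of 41 were measured. At an unadjusted p under 0.05, 8 were higher (4.61% of all genes) and 1 was lower (5.05% of all genes) at 5 ng; 21 had a change above 0 and the median was 0.040. Among the ligands, Inha, the inhibin alpha subunit, read 1383 and 1394 at 0 ng and 1805 and 2032 at 5 ng. The 5 ng arrays lay well above the closely spaced 0 ng arrays, and the change was 0.49 ± 0.11 (adjusted p = 0.21). The beta subunit genes, which encode activin itself, stayed near 0: Inhba read 498 and 615 against 589.5 and 605 (0.12 ± 0.12), and Inhbb 1824 and 1879 against 1908 and 1837 (0.05 ± 0.09). Their adjusted p-values were 0.79 and 0.90. Amh, the anti-Muellerian hormone made by immature Sertoli cells, read 55.1 and 26.1 against 79.7 and 77.5 (0.73 ± 0.27, adjusted p = 0.41), and Tgfb1 347 and 326 against 479 and 375 (0.32 ± 0.14, adjusted p = 0.48).

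Of the extracellular binding proteins, the follistatin gene had a change near 0, with Fst at 504.5 and 363 against 457 and 403 (0.02 ± 0.20, adjusted p = 0.99). Fstl3 read 187 and 133 against 219 and 175, so that its groups overlapped (0.27 ± 0.16, adjusted p = 0.64). The latent TGF-beta binding protein genes Ltbp1 and Ltbp4 had larger values. Ltbp1 read 177 and 167 against 229 and 267 (0.48 ± 0.13, adjusted p = 0.32) and Ltbp4 453.5 and 413 against 576 and 551 (0.38 ± 0.13, adjusted p = 0.41), though 1 of the 3 probe sets of Ltbp1 was negative.

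The receptor genes of activin had changes near or below 0. The type II receptor genes Acvr2a and Acvr2b had changes of -0.20 ± 0.11 (adjusted p = 0.60) and 0.06 ± 0.15 (adjusted p = 0.92). Acvr1b, the type I receptor of activin, had a change of -0.13 ± 0.12 (adjusted p = 0.77). Acvr1, a type I receptor that also serves BMPs, read 416 and 347 at 0 ng and 312 and 263 at 5 ng (-0.39 ± 0.11, adjusted p = 0.33). Its arrays did not overlap, but its other 2 probe sets were positive. Eng, the endoglin co-receptor, read 93.2 and 70.6 against 124 and 136 (0.56 ± 0.18, adjusted p = 0.37). Eng is also a marker of endothelial cells, whose 9 measured markers had a median change of -0.092.

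The signal-transducing SMAD genes had changes smaller than their SE: -0.02 ± 0.11 for Smad2, -0.04 ± 0.12 for Smad3 and -0.08 ± 0.09 for Smad4. Smad7, the inhibitory SMAD that activin signalling induces as feedback, read 122 and 145 at 0 ng and 185 and 223 at 5 ng (0.55 ± 0.19, adjusted p = 0.41). It read 242 and 270.0 at 50 ng, so that the 3 doses stood in order without overlap, while its second, dimmer probe set had a change of -0.38 at 5 ng. The SMAD corepressor gene Ski read 427.1 and 426.9 against 554 and 514 (0.32 ± 0.10, adjusted p = 0.35), with both probe sets positive, and the related Skil had a change of -0.02 ± 0.10.

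Known SMAD2/3 target and feedback genes, which overlap the pathway list, had a median above that of all genes. Of 38, 34 were measured, 6 were higher (4.61% of all genes) and 1 lower (5.05%) at an unadjusted p under 0.05, 12 did not overlap with 5 ng higher (18.1%) and 4 with 5 ng lower (24.2%), and 24 had a change above 0 (45.7%). The median was 0.075 against -0.018 for all genes. It was -0.0045 when array medians were subtracted in place of quantile normalisation (all genes -0.074), 0.032 without array 2 of 0 ng and 0.163 without array 1 of 0 ng. Tgif2, a TGF-beta-induced repressor of SMAD2, had the tightest groups, at 389 and 393 against 491 and 496.5 (0.33 ± 0.08, adjusted p = 0.23). At 50 ng it read 369 and 374, at the 0 ng level. The gelatinase gene Mmp2 had a change of 0.34 ± 0.12 (adjusted p = 0.41) and Snai1 0.38 ± 0.18 (adjusted p = 0.52). Id2, an inhibitor of differentiation, read 539.8 and 474 against 411 and 368 (-0.35 ± 0.12, adjusted p = 0.41), with 2 of 3 probe sets negative.

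Genes of cholesterol synthesis lay lower at 5 ng along most of the pathway. Cholesterol is made from acetyl-CoA through mevalonate, squalene and lanosterol, and the enzymes are transcribed under SREBF2, which SCAP carries to the Golgi when sterols are low and which the INSIG proteins hold back. Of 25 listed genes 22 were measured. At an unadjusted p under 0.05 (limma), 9 were lower (5.05% of all genes) and 0 higher (4.61%), and none passed after adjustment. Of the 22, 12 did not overlap with 5 ng lower (24.2% of all genes) and 1 with 5 ng higher (18.1%). A change below 0 was found in 17 (54.3% of all genes). The median change was -0.238, against -0.018 for all genes. By array, the median over the 22 genes, relative to the mean of the 0 ng arrays, was 0.113 and -0.113 at 0 ng and -0.153 and -0.329 at 5 ng, so that the groups did not overlap but array 2 was the lower one in each. The median was -0.153 without array 2 of 5 ng, -0.341 without array 2 of 0 ng and -0.129 with the median over the probe sets of each gene.

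At the entry of the pathway, Hmgcs1, the HMG-CoA synthase, had 5 probe sets, all with a negative change. Its upstream sequence is shown because it is the only promoter of the list that holds the sterol element searched for. The 250 bases before its start (RefSeq, GRCm38.p6, chr13:119690101-119690350, plus strand) are printed with the match to TCACNCCAC in capitals, which begins 137 bases before the start:
Hmgcs1 upstream: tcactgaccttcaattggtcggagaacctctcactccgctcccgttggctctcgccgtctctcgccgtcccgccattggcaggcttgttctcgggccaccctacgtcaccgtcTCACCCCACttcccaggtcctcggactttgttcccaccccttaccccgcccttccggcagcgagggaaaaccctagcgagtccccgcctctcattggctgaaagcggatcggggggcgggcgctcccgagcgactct
The search covered both strands of windows that also hold bases after the start. There TCACNCCAC occurred in 1 of the 19 genes of the list that matched the RefSeq table (5.26%). It occurred in 388 of all 27025 genes of the table (1.44%). The short SMAD element CAGACA occurred in 3 of the 19 (15.8%: Idi1, Tm7sf2 and Insig2) and in 23.6% of all genes of the table. Of these 3, only Idi1 held it in the 250 bases before the start. The E2F sites TTTCGCGC and TTTCCCGC and the SMAD palindrome GTCTAGAC occurred in 0 of the 19, against 0.374%, 1.24% and 0.248% of all genes of the table. A match describes letters in these windows and shows no binding.

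Hmgcs1 read 2845 and 2712 at 0 ng and 2204 and 2044 at 5 ng, with both 5 ng arrays below both 0 ng arrays (-0.33 ± 0.10, adjusted p = 0.35). Further along the mevalonate branch, the isomerase gene Idi1 read 616 and 563 against 459.7 and 449 (-0.34 ± 0.12, adjusted p = 0.41), and Mvk, the mevalonate kinase, had a change of -0.45 ± 0.34. Pmvk, the phosphomevalonate kinase, lay on the other side of 0 (0.22 ± 0.16). At the commitment to sterols, Fdft1, the squalene synthase, read 1204 and 1038 against 916 and 787 (-0.36 ± 0.11, adjusted p = 0.34), with 3 of 4 probe sets negative. Lss, which closes the sterol ring, read 384 and 259 against 244 and 208 (-0.47 ± 0.21, adjusted p = 0.50), with 2 of 3 negative. Squalene epoxidase, Sqle, is a rate-limiting enzyme and differed less, at 1229 and 1012 against 1059 and 922.5, with overlapping groups (-0.13 ± 0.12). Among the later enzymes, the demethylase gene Cyp51 read 911 and 762 against 725 and 519.9 (-0.40 ± 0.14, adjusted p = 0.41), with all 3 probe sets negative. Msmo1 read 2102 and 1748 against 1625 and 1348 (-0.30 ± 0.10, adjusted p = 0.41), though its second probe set had a change of 0.50. Sc5d, the lathosterol desaturase, read 459.7 and 451 against 377 and 359 (-0.28 ± 0.09, adjusted p = 0.36), with 2 of 3 probe sets negative. Tm7sf2 (0.16), Ebp (0.04) and Dhcr7 (0.01) stood apart from these, each with overlapping arrays.

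The regulators of the pathway differed among themselves. Insig1, itself a target of SREBF2, read 275.5 and 349 at 0 ng and 232 and 199.8 at 5 ng (-0.51 ± 0.14, adjusted p = 0.32), the lowest change of the list. Insig2 read 621 and 496 against 447.2 and 446.8 (-0.27 ± 0.11, adjusted p = 0.45). Srebf2 had a change of -0.16 ± 0.17 with overlapping arrays, and Scap 0.16 ± 0.10. Neighbouring lipid genes shifted less. The 16 measured genes of fatty acid synthesis had a median of -0.082, with 11 below 0 (54.3% of all genes) and 2 lower (5.05%) at an unadjusted p under 0.05, of which Elovl5, an elongase, read 2205 and 1963 against 1863 and 1790 (-0.14 ± 0.06, adjusted p = 0.47). The 14 measured genes of cholesterol uptake, storage and efflux had a median of -0.010, with 7 above and 7 below 0. Within them, Stard4, a sterol carrier under the same control, had a change of -0.22 ± 0.11 (adjusted p = 0.55).

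**Figure D3:**
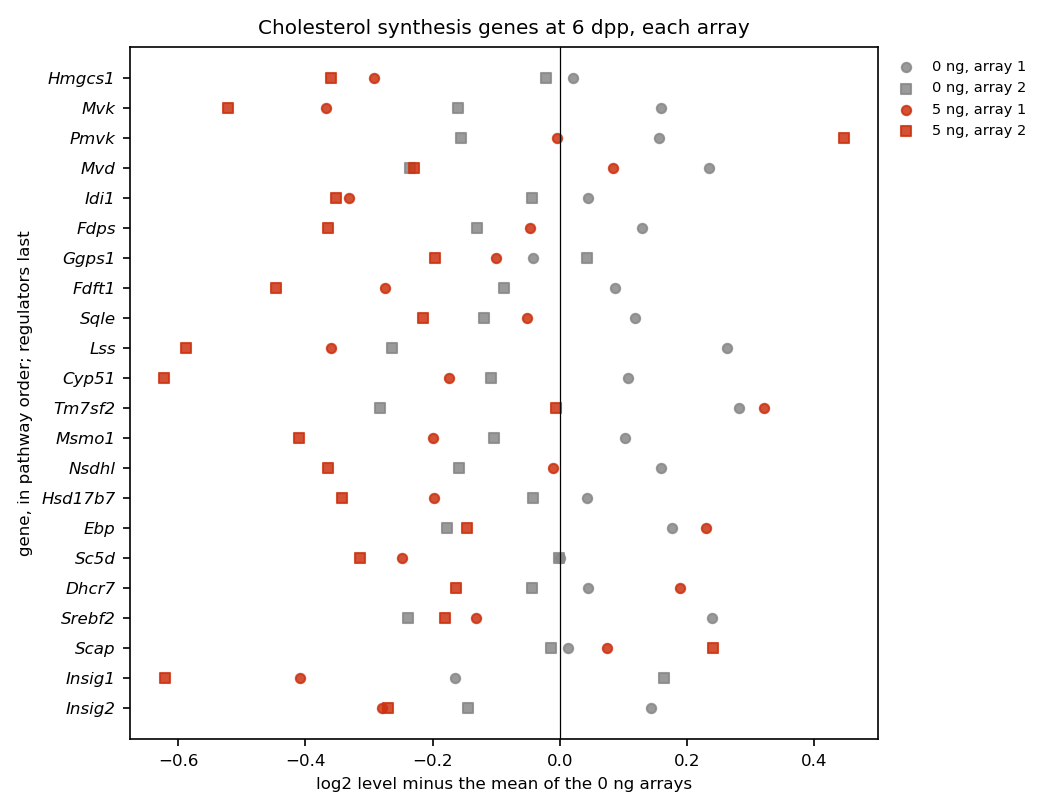
Log2 level of each of the 22 measured cholesterol synthesis genes in the 4 arrays, minus the mean of the 0 ng arrays of that gene, in pathway order with the regulators last; grey is 0 ng, red is 5 ng, circles are array 1 and squares array 2. In 12 genes both red points lie left of both grey points, and in Scap both lie right of them.

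Genes of the extracellular matrix lay higher at 5 ng by small amounts. Of 57 listed, 53 were measured. At an unadjusted p under 0.05 (limma), 12 were higher (4.61% of all genes) and 0 lower (5.05%), and none passed after adjustment. Of the 53, 25 did not overlap with 5 ng higher (18.1% of all genes) and 1 with 5 ng lower (24.2%). A change above 0 was found in 43 (45.7% of all genes). The median was 0.121, and by array it was 0.031 and -0.031 at 0 ng and 0.181 and 0.107 at 5 ng. It was 0.034 with array medians subtracted, where the median of all genes was -0.074, and 0.181 without array 2 of 5 ng. Among collagens, 14 of 16 had a change above 0. Col1a1, the fibrillar collagen chain, read 1179.8 and 1225 at 0 ng and 1671 and 1753 at 5 ng (0.54 ± 0.14, adjusted p = 0.27), but its second probe set had a change of -0.06, and its partner chain Col1a2 read 3297 and 3711 against 3620 and 3622 (0.08 ± 0.09). Col15a1, a collagen of the basement membrane zone, read 312 and 370.1 against 428 and 493 (0.43 ± 0.15, adjusted p = 0.41), and Col4a2, of the basement membrane network, 1762 and 1584.5 against 2071 and 1864 (0.26 ± 0.10, adjusted p = 0.42).

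Hspg2, which encodes the basement membrane proteoglycan perlecan, read 244 and 205 at 0 ng and 325 and 351 at 5 ng (0.57 ± 0.15, adjusted p = 0.29), with both probe sets positive. The other basement membrane genes did not share this: Nid1 (0.01) and Agrn (0.02) had changes near 0 and Nid2 one of -0.13. Of the laminin genes, 4 of 7 had a change above 0, between -0.19 for Lamb2 and 0.25 for Lamc1. Elastin, Eln, read 986 and 912 against 1345 and 1186 (0.45 ± 0.16, adjusted p = 0.41). Enzymes that modify or cleave matrix were above 0 in 12 of 14 cases. Plod1, a collagen lysyl hydroxylase, read 247 and 211 against 327 and 298 (0.44 ± 0.11, adjusted p = 0.26; its second probe set -0.06), and Mmp14, the membrane protease that activates MMP2, 836 and 855 against 1019 and 1065 (0.34 ± 0.12, adjusted p = 0.41). The 16 fibroblast markers, which include Col1a1, Col1a2, Col3a1, Col6a3, Dcn, Lum and Fbln1 of this list, had 7 changes above 0 and a median of -0.004, and the 14 myoid markers 7 above 0 and a median of -0.001. The part of these cells in the matrix result was not tested.

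Among steroid enzymes, a pair of 17-beta-hydroxysteroid dehydrogenase genes had the largest changes. Hsd17b1, which reduces estrone to estradiol, read 72.9 and 69.1 at 0 ng and 124 and 161 at 5 ng (0.83 ± 0.17, adjusted p = 0.21). Hsd17b3, which makes testosterone from androstenedione and is expressed by fetal Sertoli cells and adult Leydig cells, read 290.4 and 389 against 593 and 666 (0.87 ± 0.21, adjusted p = 0.23). In both genes each 5 ng array lay above each 0 ng array. Of the 19 measured steroid genes, with these included, 8 had a change above 0 (45.7% of all genes), 3 were higher (4.61% of all genes) and 1 lower (5.05%) at an unadjusted p under 0.05, and the median was -0.080. The Leydig cell enzyme genes Hsd3b1 and Cyp17a1 had changes of -0.18 ± 0.09 and -0.44 ± 0.21. Nr5a1, a transcription factor of steroidogenic and Sertoli cells, read 279.9 and 213 against 356.5 and 317.5 (0.45 ± 0.15, adjusted p = 0.41), with its second probe set at -0.06. Of the 10 measured Leydig cell markers, 4 had a change above 0 and 6 below, with a median of -0.059. Hsd17b3 and Nr5a1, both on that list, were the 2 higher (4.61% of all genes) at an unadjusted p under 0.05, and 0 were lower (5.05%).

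Retinoid genes went both ways, with 10 of 19 measured above 0 and a median of 0.011. Stra6, the membrane receptor that takes up retinol from its carrier, read 173 and 130.2 at 0 ng and 275 and 220.1 at 5 ng (0.66 ± 0.14, adjusted p = 0.21). Rarres1, a retinoic acid responsive gene, read 265 and 268 against 196 and 172 (-0.52 ± 0.12, adjusted p = 0.22), and Rarres2, which encodes chemerin, 147 and 145 against 104 and 125 (-0.35 ± 0.12, adjusted p = 0.41; 2 of 3 probe sets negative). The arrays of the groups overlapped in none of these 3 genes. Of the 19 measured, 4 did not overlap with 5 ng higher (18.1% of all genes) and 6 with 5 ng lower (24.2%).

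Genes of Sertoli cell identity and maturation also went both ways. Of the 20 measured Sertoli cell markers, 5 were higher (4.61% of all genes) and 1 lower (5.05%) at an unadjusted p under 0.05, and the median was 0.011. Gata4, a transcription factor of the Sertoli lineage, read 493 and 503.5 at 0 ng and 617.5 and 658 at 5 ng (0.36 ± 0.10, adjusted p = 0.31), with both probe sets positive, while Sox9 (0.00) and Fshr (0.02), the receptor gene of follicle-stimulating hormone, had changes at or near 0. Of 28 maturation genes, 4 were higher (4.61% of all genes) and 3 lower (5.05%) at an unadjusted p under 0.05, and the median was 0.006. Serpina5, the protein C inhibitor, read 297.5 and 269 against 375.5 and 412 (0.46 ± 0.15, adjusted p = 0.38), and Gja1, the connexin 43 gene, 2151 and 2423 against 2372 and 2796 with overlapping arrays (0.21 ± 0.23, adjusted p = 0.80). Serpina5, Gja1 and Ccnd2 were included because the study is known to have examined them, so their values are not independent evidence of a direction. Of 25 measured junction genes, 1 was higher (4.61% of all genes) and 2 were lower (5.05%) at an unadjusted p under 0.05. The catenin gene Ctnnd1 read 476 and 436 against 562 and 619 (0.38 ± 0.09, adjusted p = 0.22; 2 of 3 probe sets positive), and Tjp1, the tight junction scaffold ZO-1, 825.5 and 789.9 against 710.3 and 708 (-0.14 ± 0.06, adjusted p = 0.50).

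Among factors that Sertoli cells supply to germ cells and their hormone receptors, 16 of 26 had a change above 0 and the median was 0.085. The factor genes Gdnf (-0.04) and Kitl (-0.09) had changes near 0. Thra, the thyroid hormone receptor whose ligand ends Sertoli cell division, read 537 and 517 against 607 and 641 (0.26 ± 0.09, adjusted p = 0.41) with all 3 probe sets positive. Genes of glucose uptake and lactate supply had a median of 0.012 over 23. Immediate early and heat shock genes had 17 of 26 changes below 0 and a median of -0.058, with Atf3, a stress-induced transcription factor, at 170.4 and 166 against 96.4 and 126 (-0.58 ± 0.17, adjusted p = 0.34). Of the 17 genes of endoplasmic reticulum stress, Sesn2 and Pdia4 were the 2 higher (4.61% of all genes) and 2 were lower (5.05%) at an unadjusted p under 0.05. The lower were Herpud1, at 583 and 455 against 385 and 411 (-0.34 ± 0.10, adjusted p = 0.35; its second probe set 0.28), and Chac1 (-0.32 ± 0.12, adjusted p = 0.42).

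Germ cell markers had 15 of 20 changes below 0 (54.3% of all genes) and a median of -0.089, with 2 lower (5.05%) and 1 higher (4.61%) at an unadjusted p under 0.05. Sycp3, of the synaptonemal complex, read 119 and 151 at 0 ng and 110.0 and 105 at 5 ng (-0.33 ± 0.10, adjusted p = 0.37), and Ddx4, the germ cell helicase, 299.5 and 351 against 297.2 and 268 (-0.19 ± 0.09, adjusted p = 0.55). The higher one was Adam2, which passed the filter through its signals at 15 dpp (362.5 and 381 at 0 ng).

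**Figure D4:**
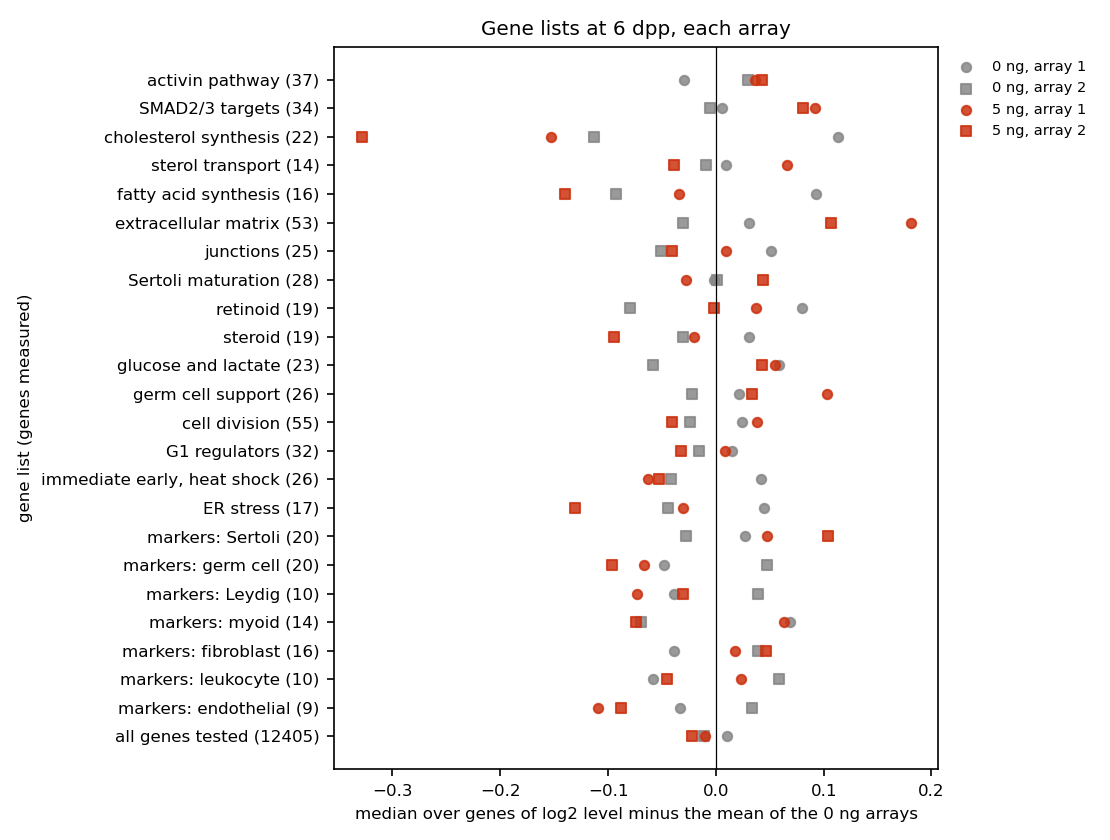
Median over the genes of each list, in each of the 4 arrays, of the log2 level minus the mean of the 0 ng arrays; the number of measured genes stands in brackets, grey is 0 ng, red is 5 ng, circles are array 1 and squares array 2. Cholesterol synthesis lies lowest at 5 ng, at -0.153 and -0.329, and extracellular matrix highest, at 0.181 and 0.107, while all genes tested lie between -0.022 and 0.011.

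The other dose and the other age are set beside these values, for genes picked after their values were seen. The comparison of 50 ng with 0 ng at 6 dpp uses the same 0 ng arrays, so its values are not independent of those at 5 ng. There 179 genes passed (1.44%), while 0 passed for 5 ng against 0 ng at 15 dpp (limma; 605 at an unadjusted p under 0.05, 4.88%), which shares no array with 6 dpp. Hsd17b1 had a change of 0.83 at 5 ng, 1.90 at 50 ng and 0.59 with 5 ng at 15 dpp. Hsd17b3 had 0.87, 1.19 and 0.66, Stra6 0.66, 0.82 and 0.44, Inha 0.49, 0.53 and 0.32, and Rarres1 -0.52, -1.25 and -0.30. At 15 dpp Hsd17b1 (17.4 and 13.6 against 34.5 and 27.4) and Hsd17b3 (5.09 and 17.0 against 22.7 and 28.2) had signals around the filter's 18.4. Other named genes had smaller changes with 5 ng at 15 dpp: -0.01 for Ltbp1 and Tgif2, 0.06 for Gata4, 0.08 for Rarres2 and 0.14 for Retreg3. Serpina5 had 0.46, 1.27 and 0.62. Smad7 had 0.55 and 0.88 at 6 dpp but -0.02 at 15 dpp, where its signals were 57.3 and 72.6 at 0 ng and 49.1 and 84.4 at 5 ng. Fstl3, with 0.27 at 5 ng and 1.11 at 50 ng, had 0.06 at 15 dpp. Genes that passed at 50 ng include Hsd17b1, Hsd17b3, Stra6, Inha, Rarres1, Ltbp1, Serpina5, Smad7 and Fstl3. Their adjusted p-values there lay between 0.000453 and 0.0443 (limma). Tgif2, Rarres2 and Retreg3 did not pass at 50 ng.

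The list medians went different ways across these comparisons. For cholesterol synthesis the median was -0.238 at 5 ng, -0.239 at 50 ng and 0.014 with 5 ng at 15 dpp. By array it was -0.161 and -0.402 at 50 ng, so that array 2 was again the lower one. For the matrix the median was 0.121 at 5 ng, 0.005 at 50 ng and 0.098 at 15 dpp. Col1a1 read 1133 and 1497 at 50 ng, overlapping its 0 ng arrays, and Hspg2 229 and 331. Medians of the SMAD2/3 targets were 0.075, 0.108 and 0.067. Levels without activin differed between the ages. At 0 ng, the cholesterol list summed to signals of 15920 and 13770 at 6 dpp and of 6112 and 6171 at 15 dpp. The matrix list summed to 62350 and 61190 at 6 dpp and to 20940 and 21990 at 15 dpp. The part of these levels in the responses was not tested.

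No gene passed the test of the difference between the 5 ng responses of 6 and 15 dpp (limma, 12405 genes; 834 at an unadjusted p under 0.05, 6.72%). For E2f5 the response was larger at 6 dpp by 1.96 ± 0.40 (adjusted p = 0.50). The 5 genes with the smallest p were Dbi, the acyl-CoA binding protein (-0.41 ± 0.07), Tnks2, a tankyrase (0.60 ± 0.11), Dync1li1, a dynein light intermediate chain (1.06 ± 0.21), Slc22a17 (0.80 ± 0.16) and the splicing factor Srsf1 (-0.43 ± 0.09), all with an adjusted p of 0.50. Dbi read 3777 and 3663 at 0 ng and 3014 and 3082 at 5 ng at 6 dpp, and 3554 and 3564 against 3703 and 3697 at 15 dpp. Its groups thus separated at both ages, in opposite directions. Dbi was picked by the p of this difference, so the opposite directions are not a further result. At 6 dpp, arrays did not overlap in 42.3% of all genes. Over the cholesterol list the median difference between the ages was -0.258, with 3 of 22 genes lower at an unadjusted p under 0.05 (3.6% of all genes) and 0 higher (3.13% of all genes). For Msmo1 it was -0.49 ± 0.15 (adjusted p = 0.70) and for Sc5d -0.31 ± 0.12 (adjusted p = 0.73), so a difference between the ages was not shown for any single gene.

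**Figure D5:**
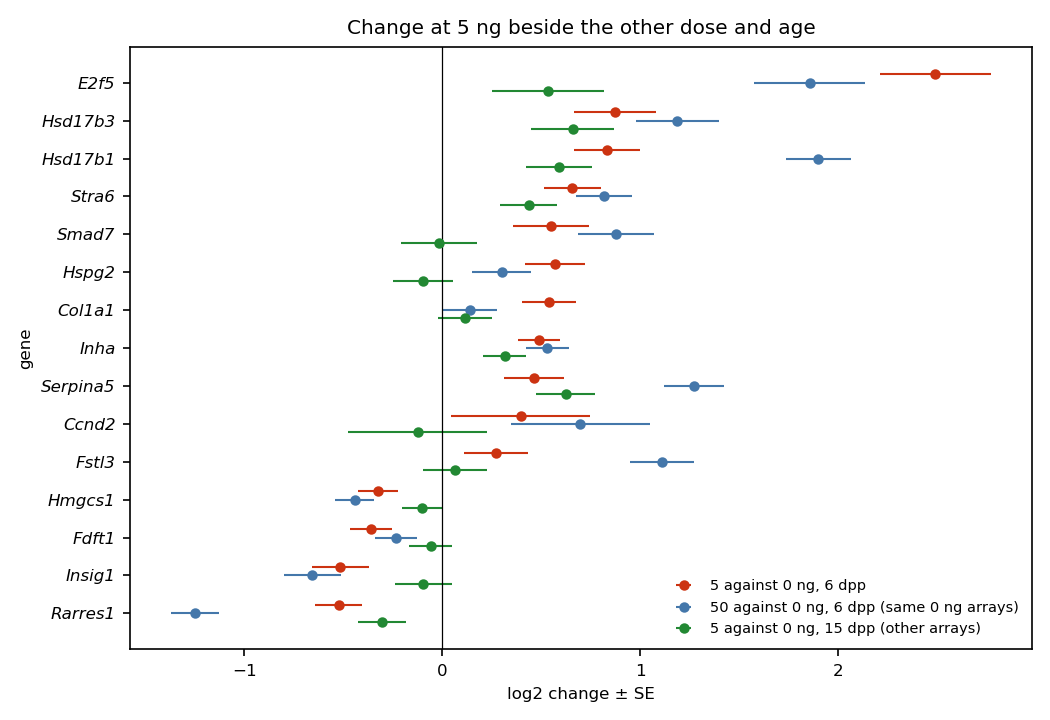
Log2 change ± SE of 15 genes for 5 ng against 0 ng at 6 dpp (red), 50 ng against the same 0 ng arrays (blue) and 5 ng against 0 ng at 15 dpp (green). E2f5 has its largest value at 5 ng and 6 dpp, at 2.49, Hsd17b1 and Rarres1 have larger values at 50 ng, at 1.90 and -1.25, and Hmgcs1, Fdft1 and Insig1 lie near 0 at 15 dpp.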

How the data were processed

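The authors deposited 1 linear intensity (probe set signal) per probe set for each of 10 arrays, 45101 probe sets in all; the summarisation software is not given in the sources used here. The trimmed mean was 125.001 on each array (2% trimmed at each end), and 0 columns were left unused. Control probe sets (64) were left out. Signals were turned into log2(signal + 16), which understates changes of low genes, quantile normalised, and filtered at the 40th percentile of the mean (signal 18.4). Symbols came from the platform annotation of 2016, updated through RefSeq (GRCm38.p6): 34945 probe sets had 1 symbol, 932 several and 9160 none. The brightest probe set represented each of 12405 genes, of which 5934 had several.

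All 5 groups were fitted with limma 3.58.1 in R 4.3.3 (lmFit, eBayes with an intensity trend; 5 residual degrees of freedom); tests are two-sided with Benjamini-Hochberg adjustment over all genes. The fit was tested on simulated data. Replicate agreement was checked across genes; the number of arrays limits the precision.

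The comparison and the 23 lists were chosen with earlier results of these data known. Lists are described by counts and medians, with no set test. Named genes are those with an adjusted p under 0.05; the 10 largest changes each way with an unadjusted p under 0.05, no overlap and a mean signal of at least 50; the 5 smallest p; a fixed set of pathway genes and the cholesterol list; and up to 4 genes of smallest p per list, clone names passed over. Other genes were named after their values were seen. Alternatives covered normalization, pseudocount, filter, variance prior, arrays fitted, probe set rule, a block on the replicate number and leaving out each array.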

Additional observations from a re-analysis of the deposited data

How the results depend on the processing

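In 22 alternatives, 115 of the 141 named genes missed the threshold in each fit that measured them. The count of genes passing at 5 ng was 2 with array medians subtracted (E2f5 and a clone) and with a pseudocount of 1 or 4 (E2f5 and Adam2). It was 0 without the filter, without the intensity trend, with only the 4 arrays of the comparison, with only the 6 arrays of 6 dpp and with the median over probe sets. Leaving out 1 array gave 0 to 2 genes: 0 without array 2 of 0 ng or 5 ng at 6 dpp or either 0 ng array of 15 dpp, and 2 without array 1 of 0 ng at 6 dpp. For the difference between the ages the range was 0 to 2 (2 without array 2 of 5 ng at 15 dpp: Mtch1 and Fen1). With a replicate block (the array number within each age), 80 genes passed at 5 ng (51 higher, 29 lower; 1797 at an unadjusted p under 0.05) and 10 for the difference between the ages. Nothing in the labels ties arrays of 1 number together. Deviations of same-numbered arrays correlated across genes at 0.164 (0 and 5 ng), 0.189 (0 and 50 ng) and 0.19 (5 and 50 ng) at 6 dpp. At 15 dpp the correlation was 0.203. Between groups of different age, it lay between -0.0513 and 0.0293. This is a hint from the data, not the design. Named genes among the 80 include Pik3cd, Ccnd2, Hsd17b3, Inha, Adgrg1, Stra6, Col1a1, Hsd17b1 and Fdft1. The median of the SMAD2/3 targets was 0.063 without quantile normalisation and with a pseudocount of 64, -0.0045 with array medians subtracted, 0.086 with the median over probe sets, and 0.032 to 0.163 when 1 array was left out. That of the matrix genes was 0.034 with array medians subtracted and 0.107 to 0.181 when 1 array was left out. That of the cholesterol genes stayed below 0, from -0.341 to -0.129. The change of Cald1 was 0.40 with the median over probe sets (-0.09 as reported). When alternatives were compared, changes smaller than their SE were taken as having no direction. Counts of changes above or below 0 and of probe sets by sign used the sign alone. The causes of the differences between alternatives were not tested.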
